A study of Mus musculus with 4 samples.

Results

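Among pancreatic group 2 innate lymphoid cells (ILC2) that had kept their green fluorescence, 23 of the 98 cells with a usable profile held 16 or more reads of Il5, and the other 75 held fewer. The comparison of these Il5-positive with Il5-negative cells draws on 151 sorted non-photoconverted cells of plate 1, out of 1170 sorted cells on the 4 plates of the series. A cell was used if at least 500 genes had 1 read or more and under 25% of its reads were mitochondrial. The 23 cells were selected on their Il5 reads alone, so the Il5 level is a description and supports nothing, and every other gene was then set beside it.

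ILC2 are tissue-resident lymphocytes without antigen receptors that answer epithelial alarmins, neuropeptides and lipid mediators. Interleukin-5, which they make together with interleukin-13, sustains eosinophils, and amphiregulin from the same cells acts on the epidermal growth factor receptor of epithelium. The Il5, Il13 and Il4 genes lie close together in the type 2 cytokine locus, with Rad50 between Il5 and the other two, whose accessibility depends on GATA3, and acute transcription at such loci is known to require NFAT, AP-1 and NF-kB factors. In many tissues a part of the ILC2 pool transcribes Il5 without an experimental challenge.

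All cells came from the pancreas of mice labelled C57BL6J and carried a photoconvertible reporter labelled KIKR, which is green until light converts it to red. The green cells used here are the non-photoconverted class, labelled KIKR-Green, and the 12 wells labelled KIKR-Red are the photoconverted class of the same plate. Cells were index-sorted into 384-well plates and made into 3' tag libraries by SORT-seq, a plate version of CEL-seq2. The series title names fasting, but the labels used here give no feeding state, age or number of animals for the plate, nor where light was applied. All 98 cells share 1 plate and 1 library, so there is no replicate of either class and no test between them was possible. Intervals below are exact binomial (Clopper-Pearson) 95% intervals, which cover the counting of cells only, and reads were not collapsed to molecules.

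Il5 is on chromosome 11 at 53720794 to 53725106 of mm10, on the plus strand (GENCODE M21). The stretches of 250 bases before the start sites of Il5 and of the 3 secreted products that differed most between the classes after equalising depth are shown, because they let the response elements of these genes be compared by eye. They are from RefSeq on GRCm38.p6, written 5' to 3' in the direction of transcription, and lie at chr11:53720544-53720793 on the plus strand for Il5, chr5:91139349-91139598 on the plus strand for Areg, chr7:114636358-114636607 on the minus strand for Calca and chr5:90903649-90903898 on the plus strand for Cxcl2. Capitals mark matches, on either strand, to TGANTCA (AP-1), TGACGTCA (the cyclic AMP response element, CRE), GGG with any 2 bases and TTTCC after it (NF-kB), GGAAA (the NFAT core) and GATA between A or T before it and A or G after it (GATA factors).
Il5: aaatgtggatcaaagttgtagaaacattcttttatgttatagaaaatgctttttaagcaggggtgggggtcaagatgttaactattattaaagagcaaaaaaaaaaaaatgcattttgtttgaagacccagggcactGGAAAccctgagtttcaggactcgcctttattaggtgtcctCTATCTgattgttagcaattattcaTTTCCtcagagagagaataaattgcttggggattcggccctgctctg
Areg: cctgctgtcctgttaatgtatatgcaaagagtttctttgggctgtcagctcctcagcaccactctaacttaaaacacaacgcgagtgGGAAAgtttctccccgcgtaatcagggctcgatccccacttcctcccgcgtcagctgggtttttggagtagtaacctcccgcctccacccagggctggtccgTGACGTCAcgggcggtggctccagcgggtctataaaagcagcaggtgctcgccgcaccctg
Calca: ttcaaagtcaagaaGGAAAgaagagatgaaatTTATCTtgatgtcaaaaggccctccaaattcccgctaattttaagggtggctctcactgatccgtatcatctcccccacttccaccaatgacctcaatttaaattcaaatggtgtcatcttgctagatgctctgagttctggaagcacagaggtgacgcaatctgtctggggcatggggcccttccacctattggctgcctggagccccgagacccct
Cxcl2: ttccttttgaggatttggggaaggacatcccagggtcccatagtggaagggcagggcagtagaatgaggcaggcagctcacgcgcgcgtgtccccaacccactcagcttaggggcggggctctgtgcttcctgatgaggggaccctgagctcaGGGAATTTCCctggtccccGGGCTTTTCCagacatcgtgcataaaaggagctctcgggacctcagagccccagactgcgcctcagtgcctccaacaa

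The Il5 window held 2 NFAT cores, at bases -113 to -109 and -47 to -43 from the start site, and a GATA match at -72 to -67. Areg had a full CRE at -61 to -54 and an NFAT core at -163 to -159. Calca had an NFAT core and a GATA match near the far end of its window. Cxcl2 had 2 NF-kB matches, at -97 to -88 and -78 to -69, and its 2 NFAT cores lie inside them. Over 32851 RefSeq promoter windows of the same length, 55.6% held the NFAT core, 26.5% a GATA match, 6.75% an AP-1 match, 1.55% the CRE and 1.41% the NF-kB match. The NFAT and GATA matches are therefore common letters, and a match describes the sequence and not a bound site.

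The split fell in a gap of the Il5 distribution. The Il5-positive cells held 31 to 3350 Il5 reads with a median of 290, and the highest Il5-negative cell held 13. Of the 75 negatives, 52 held 0 Il5 reads, 20 held 1 to 3 and 3 held 4 to 15. Scaled to counts per 1000000 reads of all other genes (CPM, without spike-in reads), Il5 ran from 68.7 through a median of 976 to 7869 CPM in the positives. Positive cells thus spanned a wide range, and the highest negative was at 61.7 CPM. The classes were cut on Il5 reads, so their separation in reads or CPM is a description and supports nothing. The Il5-positive share of usable cells was 23.5% (23 of 98, 95% interval 15.5 to 33.1%).

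Background reads did not reach the threshold. None of the 221 empty wells of the plate held 16 Il5 reads, for which the exact interval reaches 1.66% and the limit of 3 counts taken for a count of 0 is 1.36%. At least 1 Il5 read was in 13 of them. Among the 53 green wells that failed the filter on genes or mitochondrial reads, 3 held 16 or more. In the photoconverted class, 7 of 8 usable cells were Il5-positive. By plate row, Il5-positive cells numbered 0 of 11 usable cells in row A, 2 of 12 in B, 2 of 12 in C, 6 of 16 in D, 4 of 14 in E, 5 of 18 in F and 4 of 15 in G.

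**Figure D1:**
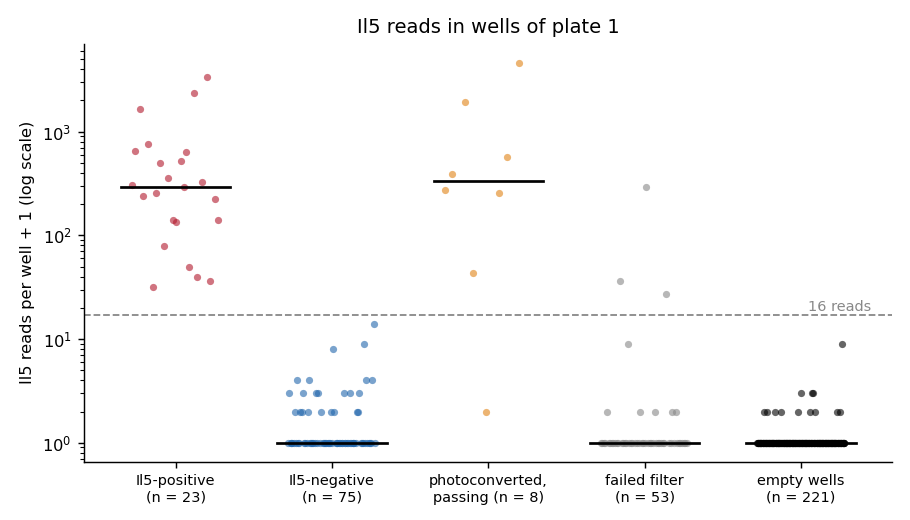
Il5 reads per well plus 1 on a log scale, for 5 classes of wells on plate 1; each point is a well, the black bar is the class median and the dashed line marks 16 reads. The 23 Il5-positive cells lie from 31 to 3350 reads, the 75 negatives at 13 or fewer, and no empty well reaches the line.

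Il5-positive cells gave richer libraries. They had a median of 2665 genes at 1 read or more (544 to 4479), against 1528 (502 to 3437) in all Il5-negative cells, and a median of 425715 against 153135 gene reads. Spike-in reads, which do not come from the cell, had medians of 74687 and 66549 in these classes, with ranges that overlapped (38482 to 189255 and 21304 to 114764). The mitochondrial share had a median of 9.17% in positives and 9.72% in all negatives. Red fluorescence overlapped too, at -1035 to 1314 with a median of 145 in positives and a median of -77 and up to 1527 in all negatives. The cut was on Il5 reads and not on CPM, so a deeper cell reached it at a lower Il5 CPM. Larger or more active cells, better capture of the RNA of a cell and this effect of the cut cannot be told apart here.

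Because a deeper cell shows more of every gene, each positive cell was paired with 1 Il5-negative cell by number of genes detected, and shares are given for these 23 matched cells as well as for all 75. Matching narrowed the gap without closing it: the matched cells had a median of 2353 genes and 343893 gene reads, the positive cell had more genes in 18 of the 23 pairs, and 16 pairs were within 10% of each other. The share of cells with at least 16 reads of a gene is the measure used from here on. Cells with fewer reads of a gene count as without it. A difference of 20 percentage points between 23 and 23 cells marks a large one.

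**Figure D2:**
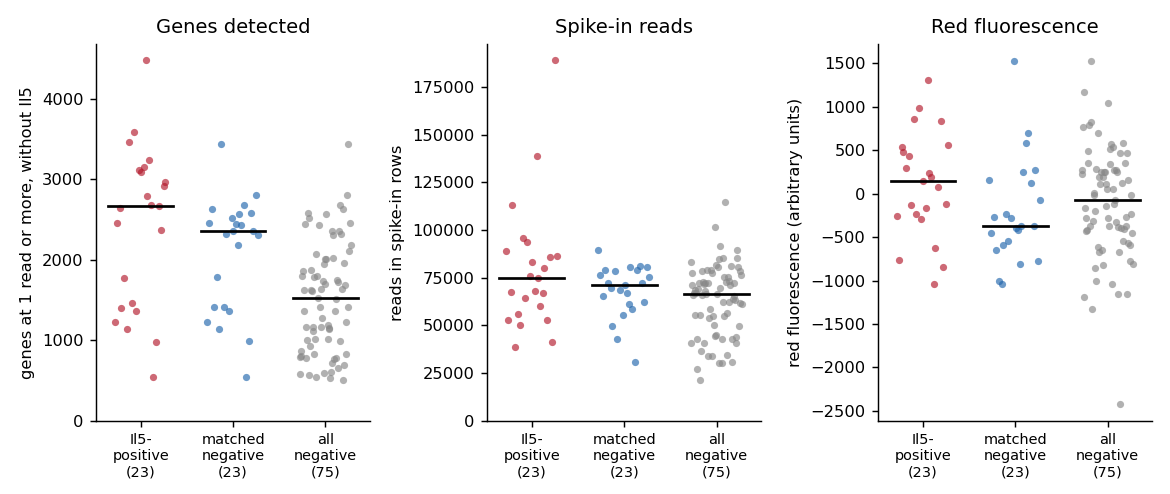
Genes detected (Il5 left out), spike-in reads and red fluorescence in arbitrary units for Il5-positive, matched Il5-negative and all Il5-negative cells; points are cells and black bars medians. Median genes are 2665, 2353 and 1528, while spike-in reads and red fluorescence overlap across classes.

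ILC2 markers were found in most cells of both classes. At least 3 ILC2 marker genes other than Il5 were found in 22 of 23 positives, 22 of 23 matched cells and 66 of 75 negatives. Of the 15 such markers with a row, 14 were found in at least 1 positive cell and Nmur1, the neuromedin U receptor, in none. Their summed level was 1812 to 33814 CPM (median 12423) in positives and 1687 to 20716 CPM (median 10316) in matched cells. Only 4 of the 10 T cell markers listed had a row. Cd3d, Cd3e and Cd8a were at 0 in positives, and the other was found in 2 positives. At least 1 of the 4 was found in 3 matched cells. Their summed level had a median of 0 CPM in positives and in matched cells, with highest cells at 686 and 1188 CPM. NK or ILC1 markers, of which 6 of 10 had a row, also had a median of 0 CPM. They reached 5281 CPM in positives and 1888 CPM in matched cells. Of 12 acinar markers listed, 5 had a row, and none of these reached 16 reads in any cell. At least 1 myeloid marker was found in 11 positives and 8 matched cells, with highest sums of 5169 and 1125 CPM, and the 1 endothelial or stromal marker with a row in 4 and 3. The 2 markers of the ILC3 list that passed the filter on low genes were Ltb and Kit, and their part in the results was not tested.

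Across the 3013 genes found at 16 reads in at least 10 of the 98 cells, positives exceeded matched negatives by 20 points or more for 330 genes (11.0%) and fell short by as much for 75 (2.49%). By any amount, 58.1% were found in more positives and 28.3% in fewer, and the median difference was 4.35 points, so lists of genes are read against a general surplus. Against all 75 negatives, without matching, 25.6% of genes were higher by 20 points and 0.0332% lower, 90.1% higher and 9.79% lower by any amount, with a median of 13.2 points. When every cell was drawn down to 1000 reads, 0.299% were higher and 0.0332% lower than in matched cells by 20 points, 51.3% higher and 48.7% lower by any amount, and the median was 0.112 points. In the 16 pairs within 10% of each other, 162 genes of the 2436 described were higher by 20 points, 136 lower, and the median was 0. At 16 reads, the median surplus was thus smaller against matched cells than against all negatives, and 0 in the close pairs. With cells matched on reads of genes instead, it stayed at 4.35 points, with 370 genes higher by 20 points and 63 lower. Shares in 1000 drawn reads do not use the threshold of 16 reads, so the size of their median cannot be set beside the others. They are also low for genes of low CPM, which limits how far such genes can differ under that measure. Whether depth accounts for the surplus was not tested, and no gene's difference here has a replicate check.

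Several secreted products were found in more Il5-positive cells, among them amphiregulin, the CGRP precursor and 2 bone morphogenetic proteins. Of 23 effector cytokines and products listed, 16 had a row and 9 were frequent enough to describe. Of these, 6 (66.7%, against 58.1% of all genes) were found in more positives than matched cells and 2 in fewer. By 20 points, 4 were higher, against 11.0% of all genes, and 0 lower. The median difference was 13.0 points. The list median was -1.45 points when each positive was compared with its 3 nearest negatives, the 1 setting of 16 where it fell below 0. The 4 genes were Bmp7, Areg, Calca and Bmp2.

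Areg, which encodes amphiregulin, was found in 20 of 23 positives (87.0%, interval 66.4 to 97.2%), 14 of 23 matched cells (60.9%, interval 38.5 to 80.3%) and 45 of 75 negatives. Its level ran from 0 through a median of 2121 to 9523 CPM in positives and from 0 through 804 to 5614 CPM in matched cells. The ranges overlapped over most of their length, with means of 2529 and 1372 CPM. Drawn to 1000 reads, the expected shares were 67.0% and 45.3%, and in the 16 close pairs the difference was 37.5 points. With detection at 1 read the difference from matched cells was 0 points. At 16 reads Areg was also found in 4 of 221 empty wells.

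Calca, the precursor of calcitonin and of the neuropeptide CGRP, was found in 13 positives (56.5%, interval 34.5 to 76.8%), 7 matched cells (30.4%, interval 13.2 to 52.9%) and 24 of 75 negatives (32.0%). Levels ran from 0 through a median of 171 to 11139 CPM in positives and from 0 through 7.61 to 8310 CPM in matched cells. The ranges overlapped entirely at the low end, and a few cells of each class carried most reads: without the highest cell of each class the means were 1350 and 237 CPM, from 1776 and 588 CPM. The difference of 26.1 points was 20.1 points drawn to 1000 reads, 18.8 in the close pairs, 13.0 when matched on genes at 16 reads and 10.1 against the 3 nearest negatives. The CGRP receptor parts were less frequent, with Ramp1 in 7 cells of each matched class and Calcrl in 3 positives and 2 matched cells.

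Cxcl2, a chemokine that recruits neutrophils, was found in 13 positives (56.5%), 5 matched cells (21.7%, interval 7.46 to 43.7%) and 12 of 75 negatives. It ran from 0 through a median of 114 to 43745 CPM in positives and from 0 through 24.6 to 2109 CPM in matched cells. Some positives lay above every matched cell, and the means were 4883 and 250 CPM, a log2 ratio of 4.24 after adding 10 CPM. Without the highest cell of each class the means were 3117 and 165 CPM. In the 16 close pairs the difference in share was 18.8 points, and with detection at 1 read it was 4.35 points. Of 14 chemokines listed, 8 had a row and Cxcl2 alone passed the filter; Cxcl1, Cxcl3 and Cxcl10 were each found in 2 or 3 positives and 1 matched cell, and Ccl5 in 0 and 3.

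Both bone morphogenetic proteins of the list leaned the same way. Bmp7 was found in 10 positives (43.5%), 3 matched cells (13.0%) and 8 of 75 negatives (10.7%), at up to 334 CPM in positives and 457 CPM in matched cells. Bmp2 was found in 7 positives (30.4%), 2 matched cells (8.70%) and 4 of 75 negatives (5.33%), at up to 1475 and 789 CPM. Most cells of either class held 0 or few reads of them. Among all 75 negatives the highest cells were at 1409 CPM of Bmp7 and 2158 CPM of Bmp2, above the highest positives. Mean levels in positives and all negatives were 76.9 and 65.7 CPM of Bmp7, and 164 and 58.5 CPM of Bmp2. Drawn to 1000 reads the Bmp7 shares were 6.87% in positives and 3.20% in matched cells, a difference of 3.67 points.

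The other cytokines of the list that passed the filter differed by under 20 points. Csf2, which encodes GM-CSF and lies 522165 bases from Il5, was found in 12 positives (52.2%), 9 matched cells (39.1%) and 24 of 75 negatives (32.0%), with mean levels of 229 and 90.3 CPM. Its difference was 34.8 points with detection at 64 reads, 9.08 points drawn to 1000 reads and -13.0 points against the 3 nearest negatives. Ltb, the lymphotoxin beta subunit, was found in 15 positives and 16 matched cells. Csf1 was found in 6 and 8, Lif in 5 and 3, and Osm in 5 and 5. These counts differ by 0 to 3 cells.

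Il13, which lies 86092 bases from Il5 with Rad50 between them, was rare. It was found in 5 positives (21.7%, interval 7.46 to 43.7%), 1 matched cell (4.35%, interval 0.110 to 21.9%) and 3 of 75 negatives (4.00%), so 8 usable cells in all held it and it stayed below the filter of 10 cells. Of these 8 cells 62.5% were Il5-positive. The 5 Il13-holding positives had 84 to 1289 Il13 reads and were the 12th, 15th, 16th, 19th and 23rd of the 23 when ordered by Il5 CPM. All 5 were deep cells, with 2787 or more genes, whereas CPM puts many shallow cells first, and by Il5 reads the 1 with 632 was the 6th. Il4, 102125 bases away, was found in 2 positives, 4 matched cells and 7 of 75 negatives.

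Within 1 Mb of Il5, 17 annotated genes had a row and 9 passed the filter. Of these, 5 were higher than in matched cells (55.6%, against 58.1% of all genes) and 4 lower. The median difference was 4.35 points, with 0 past 20 points. Rad50, whose 3' part holds the locus control region of the type 2 cytokine genes, was found in 6 positives and 7 matched cells, and Irf1 in 9 and 10.

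Single cells differed in how many products they held. Of Csf2, Areg, Calca, Cxcl2 and Bmp7, at least 3 were found in 14 of 23 positives (60.9%), 5 of 23 matched cells (21.7%) and 15 of 75 negatives. Of the 5 genes, 4 had a higher share in positives by 20 points or more, so this tally describes the cells and is no sign that the products go together. All 5 were present in 2 positives, and 0 of them in 1 positive and 5 matched cells. Of the 10 cells with most Il5 CPM, single cells differed widely: the cell with 3350 Il5 reads held 4054 Areg and 3391 Calca reads but 10 Cxcl2 reads, and a cell with 1651 Il5 reads held 21421 Cxcl2 and 2 Calca reads.

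**Figure D3:**
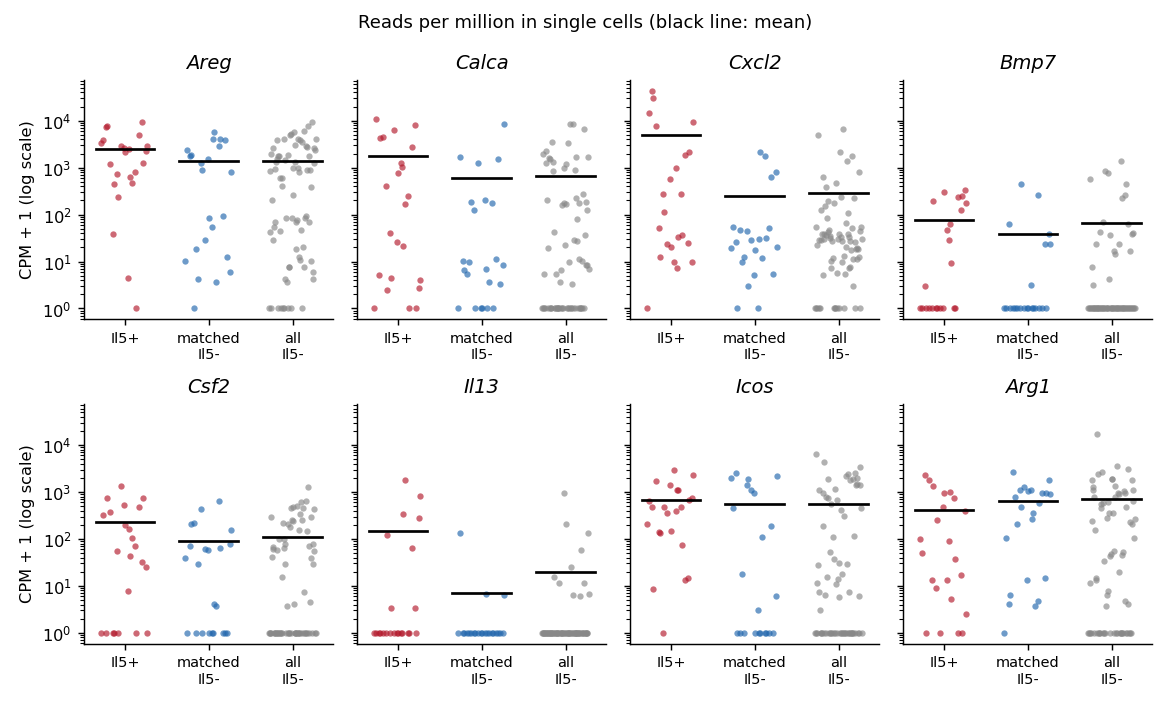
CPM plus 1 on a log scale of 8 genes in single cells of the Il5-positive (23), matched Il5-negative (23) and all Il5-negative (75) classes; black lines are means. Areg, Calca and Cxcl2 reach higher in positives than in matched cells, Il13 has 16 or more reads in 5 positives, and Arg1 is found in fewer positives (10) than matched cells (16).

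Most receptors through which ILC2 are activated were found in shares of the 2 classes less than 20 points apart. Of 23 alarmin and cytokine receptors listed, 15 passed the filter, with 12 higher and 3 lower than in matched cells and a median difference of 8.70 points. That median was -0.21 points in cells drawn to 1000 reads. Il1rl1, the interleukin-33 receptor, was found in 18 positives (78.3%) and 17 matched cells (73.9%), with medians of 746 and 898 CPM. Il17rb, the interleukin-25 receptor, was found in 13 positives (56.5%), 8 matched cells (34.8%) and 17 of 75 negatives (22.7%), and was the 1 receptor past 20 points on the high side; in the close pairs its difference was 12.5 points. Tnfrsf25, the receptor of TL1A, was past 20 points on the low side, with 4 positives, 9 matched cells and 17 of 75 negatives.

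Il7r was found in 17 positives and 14 matched cells, Il2ra in 12 and 14, and Il2rg in 22 and 20. Crlf2, which pairs with Il7r as the TSLP receptor, was found in 4 and 2. Il2rb was found in 8 and 7, and Tgfbr2 in 8 and 5. None of these differences reached 20 points.

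The lineage factors Gata3 and Id2 were found in most cells of both classes, with 59 and 61 of 75 negatives. Bcl11b was found in most positives and most matched cells, but in 31 of 75 negatives (41.3%). Gata3 was found in all 23 positives and 21 of 23 matched cells, at 260 through a median of 3146 to 7231 CPM against 5.46 through 1603 to 8674 CPM. Id2 was found in 23 and 22, Bcl11b in 18 and 14 and Bhlhe40, a factor of cytokine-producing lymphocytes, in 13 and 10. Of 28 transcription factors listed, 17 passed the filter. Of these, 8 were higher (47.1%, against 58.1% of all genes) and 5 lower, with a median of 0 points. By 20 points, 0 were higher and 0 lower, against 11.0% and 2.49% of all genes. Pparg (3 and 7 cells), Maf (4 and 8) and Runx3 (2 and 5) were on the low side. Rora was found in 4 positives, 0 matched cells and 2 of 75 negatives, below the filter.

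The list of costimulatory and checkpoint receptors also holds Arg1, an enzyme, and Ly6a. Of its 10 genes that passed the filter, 2 were higher and 1, Arg1, lower by 20 points, against 11.0% and 2.49% of all genes. Icos, the costimulatory receptor for ICOS ligand, was found in 17 positives (73.9%), 10 matched cells (43.5%) and 25 of 75 negatives (33.3%), with medians of 468 and 5.08 CPM in the matched classes. Tnfrsf18, which encodes GITR, had the same counts in the matched classes, 17 and 10, and 24 of 75 negatives. Both ranges overlapped, since some matched cells reached 2541 CPM of Icos and 1252 CPM of Tnfrsf18, and the mean levels gave log2 ratios of 0.28 and 0.32. Their differences were 10.8 and 4.38 points drawn to 1000 reads, and 25 and 18.8 points in the close pairs. Klrg1, a marker of mature ILC2, was found in 18 positives and 16 matched cells. Ly6a was found in 19 and 21.

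Arg1, the arginine-degrading enzyme of ILC2, went the other way against matched cells: 10 positives (43.5%), 16 matched cells (69.6%) and 33 of 75 negatives (44.0%). Its levels had medians of 49.1 and 475 CPM in the matched classes, with highest cells at 2318 and 2603 CPM. The matched cells stood above both other classes, which had nearly equal shares, and against the 3 nearest negatives the difference was -2.90 points. By any amount, 6 of the 10 genes of the costimulatory and checkpoint list were higher and 4 lower, with a median of 4.35 points. In cells drawn to 1000 reads, 4 were higher and 6 lower, with a median of -1.19 points.

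In the list of AP-1 and EGR immediate early genes, 9 of 16 were higher (56.25%, against 58.1% of all genes) and 5 lower than in matched cells. The median of 4.35 points was equal to that of all genes. In cells drawn to 1000 reads, 6 were higher (37.5%, against 51.3% of all genes) and 10 lower, with a median of -1.78 points. Crem, a cyclic AMP responsive factor, was found in 15 positives (65.2%), 7 matched cells (30.4%) and 19 of 75 negatives (25.3%), and Egr1 in 11, 6 and 22. Fosb was found in 8 positives and 11 matched cells, Fos in 17 and 15, and Nr4a1 in 21 and 18. Drawn to 1000 reads, the Crem shares were 16.6% and 11.7%.

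Of the 14 NF-kB pathway genes that passed, 12 were higher (85.7%, against 58.1% of all genes) and 2 lower, with a median of 6.52 points. By 20 points, 2 were higher, against 11.0% of all genes. Traf1, an adaptor of tumour necrosis factor receptors, was found in 10 positives (43.5%), 3 matched cells (13.0%) and 14 of 75 negatives (18.7%), and Nfkbid in 15, 10 and 27. In the close pairs the list median was 0 points and Nfkbid stood at -6.25 points. Nfkbia, the feedback inhibitor, was found in 23 and 22 cells.

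In the list of calcium and NFAT signalling, 10 of 17 (58.8%, against 58.1% of all genes) were higher and 6 lower. Drawn to 1000 reads, 4 were higher (23.5%, against 51.3% of all genes) and 13 lower, with a median of -2.43 points. Orai1, the pore of the store-operated calcium channel, was the 1 gene past 20 points. It was found in 8 positives, 2 matched cells and 3 of 75 negatives. Its level had medians of 1.17 and 0 CPM, so few reads carry that difference. Of 10 MAPK pathway genes, 7 were higher (70.0%, against 58.1% of all genes) and 2 lower, with a median of 10.9 points and 0 past 20 points. Gadd45b was found in 14 positives and 10 matched cells.

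Targets of STAT5 and of cytokine signals had the 1 median below 0 among the 20 lists. Of the 13 genes that passed, 3 were higher (23.1%, against 58.1% of all genes) and 9 lower, with a median of -8.70 points. Cish, a feedback inhibitor induced by STAT5, was found in 11 positives (47.8%), 16 matched cells (69.6%) and 33 of 75 negatives (44.0%), and Mcl1, a survival gene, in 9, 13 and 21. Stat3 (14 and 9 cells) and Jak1 (17 and 12) were higher by 20 points or more. Against all 75 negatives the list median was 11.1 points, against 13.2 points for all genes. Its sign thus depended on which negatives were used, while it lay below the median of all genes with either set.

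The machinery for secretion leaned toward positives. Of 34 secretory pathway and unfolded protein response genes, 25 passed, with 19 higher (76.0%, against 58.1% of all genes) and 4 lower. The median was 8.70 points, and 5 were higher by 20 points, against 11.0% of all genes. Hsp90b1, the endoplasmic reticulum chaperone, was found in 17 positives (73.9%), 10 matched cells (43.5%) and 21 of 75 negatives, with medians of 143 and 17.4 CPM. Ssr3, a subunit of the translocon-associated complex, was found in 10, 3 and 7 cells. Sec61g, a subunit of the translocation channel, was found in 11, 4 and 17 cells.

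Pdia3 (12 and 7 cells) and Spcs1 (10 and 5) were the others past 20 points. Hspa5, the main sensor chaperone of the unfolded protein response, was found in 13 positives and 9 matched cells, with mean levels of 274 and 392 CPM. Srp9 was found in 4 and 7. In the 16 close pairs, 13 of 22 described genes of the list were higher and 4 lower, with a median of 6.25 points against 0 for all genes.

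Glycolytic genes were nearly all found in more positives, by small amounts. Of the 11 that passed, 10 were higher (90.9%, against 58.1% of all genes) and 1 lower, with a median of 13.0 points and 0 past 20 points. In the close pairs 4 of 8 were higher, with a median of 3.12 points. Ldha was found in 21 positives and 18 matched cells, with medians of 1440 and 985 CPM, and Aldoa was the 1 lower gene, with 12 and 14. In the list of amino acid uptake and growth, 8 of 17 were higher (47.1%, against 58.1% of all genes) and 4 lower. The list median was 0 points. By 20 points, Odc1, Slc38a2 and Nop56 were higher, 3 of 17 genes, against 11.0% of all genes. Odc1, the rate-limiting enzyme of polyamine synthesis, was found in 18, 12 and 30 cells of positives, matched and all negatives. Slc38a2, a glutamine transporter, was found in 13, 7 and 15, and Nop56 of the nucleolus in 10, 5 and 15. The difference for Odc1 was 50.0 points in the close pairs and 5.80 points against the 3 nearest negatives.

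Of the 72 ribosomal protein genes that passed, 19 were higher and 31 lower, with a median of 0 points; many were found in nearly every cell, which leaves little room for a difference. Drawn to 1000 reads, 40 of 72 were higher (55.6%, against 51.3% of all genes), with a median of 1.05 points. Of 14 rows of mitochondrially encoded genes, 8 were higher (57.1%, against 58.1% of all genes) and 1 lower, with a median of 4.35 points. Lipid genes were even, with 3 higher and 3 lower of 9. Hadha, of mitochondrial fatty acid oxidation, was found in 2 positives, 7 matched cells and 13 of 75 negatives, and Acsl5 in 6, 2 and 4.

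In the lists of homing genes and of receptors for nerve and lipid mediators, 3 of 17 and 1 of 8 described genes were higher by 20 points, against 11.0% of all genes. Rgs2, a brake on G protein signals, was found in 20 positives (87.0%), 12 matched cells (52.2%) and 42 of 75 negatives (56.0%), with medians of 1726 and 162 CPM. Drawn to 1000 reads its shares were 63.1% and 35.5%, and in the close pairs the difference was 37.5 points. With detection at 1 read the Rgs2 difference was 0 points. Itgal and Itgb2, the 2 chains of the integrin LFA-1, were found in 18 and 17 positives and in 12 matched cells each; drawn to 1000 reads, Itgb2 reversed to -3.90 points. Gpr65, a proton-sensing receptor, was found in 16 positives, 10 matched cells and 27 of 75 negatives.

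Of the 8 receptors for nerve and lipid mediators that passed, 6 were higher and 1 lower, with a median of 10.9 points. Of the 17 homing genes that passed, 9 were higher and 6 lower, with a median of 4.35 points. In cells drawn to 1000 reads, 6 were higher and 11 lower, with a median of -1.96 points. Cxcr6 was found in 15 positives and 17 matched cells and Ccr2 in 12 and 14.

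Cells with a cell cycle profile were few and Il5-positive. At least 10 cell cycle genes were found in 3 cells, with 28, 19 and 12 such genes, and all 3 were Il5-positive with 253, 78 and 133 Il5 reads. They had 3458, 3585 and 3082 genes detected, among the deeper cells, whereas the highest matched cell held 6 cell cycle genes and the highest of all negatives 7. Of the 10 cell cycle genes that passed the filter, 9 were higher (90.0%, against 58.1% of all genes) and 0 lower, with a median of 13.0 points. Higher by 20 points, against 11.0% of all genes, were 3 of them. These were Mcm2 (6 and 1 cells) and Mcm4 (7 and 2), of the replicative helicase, and the histone gene H2afz (17 and 12). Without the 3 cells, 5 of 8 described genes were higher and 3 lower, with a median equal to that of all genes in that setting. In the close pairs, 3 of 7 described genes were higher and 3 lower, with a median of 0 points, as for all genes.

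**Figure D4:**
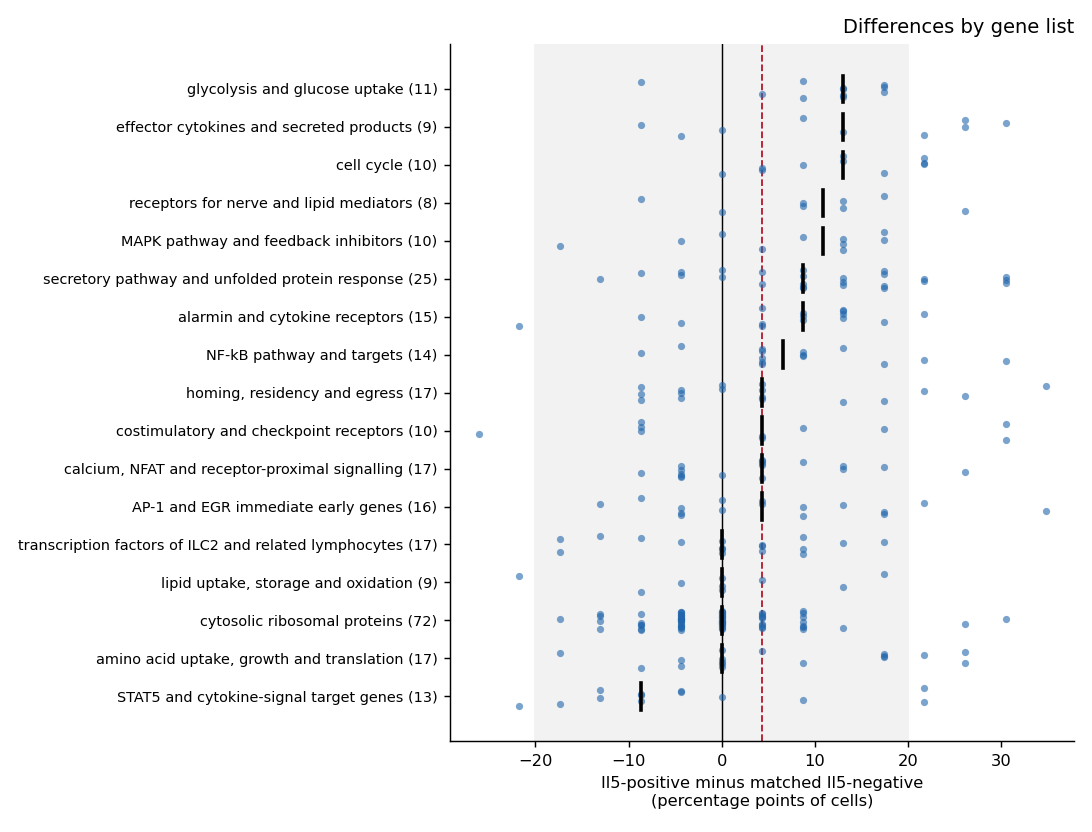
Difference in the share of cells (Il5-positive minus matched Il5-negative, in percentage points) for each described gene of 17 lists, with the number of genes in parentheses; black bars are list medians, the red dashed line is the median of all 3013 genes (4.35 points) and the shaded band lies within 20 points. Effector products, glycolysis and cell cycle have medians of 13.0 points, and STAT5 targets of -8.70 points.

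Across all genes, those with the largest differences in share were ranked if the sign was the same after drawing down and in mean CPM. On the high side Ddx18, a nucleolar RNA helicase, was found in 12 positives (52.2%), 1 matched cell (4.35%) and 4 of 75 negatives (5.33%). Dynll1, a dynein light chain, was found in 18, 8 and 20 cells, and Krtcap2, a subunit of the oligosaccharyltransferase that glycosylates secreted proteins, in 16, 6 and 17. Ubl5, Baz1a, Ebna1bp2, Ep400, Psma5, Txn1, Syncrip, Rbmxl1 and Vcp completed the 12, with differences of 39.1 to 43.5 points. Reads of Rbmxl1 could be shared with its close relative Rbmx.

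Drawn to 1000 reads, the difference was 26.8 points for Krtcap2, 9.82 for Ddx18 and 9.18 for Vcp, an ATPase of protein quality control. These sizes depend on the level of each gene, so they do not rank the genes. Krtcap2 was 1 of the 9 genes past 20 points under that measure, with Areg, Calca, Cxcl2, Rgs2, Odc1, Eif5a, Ubxn4 and the mitochondrial row of mtNd5. Of these, Eif5a, Ubxn4 and mtNd5 are named after their values were seen. Krtcap2 was also 43.8 points higher in the close pairs, and 4.35 points higher with detection at 1 read.

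On the low side Pnn, a splicing-associated protein, was found in 4 positives (17.4%), 15 matched cells (65.2%) and 18 of 75 negatives (24.0%). Stxbp3a, Synj2bp, Tial1, Selk, Naip5, Pik3r1, Fam114a2, Ubap2l, Dip2b and Qars followed, with differences of -26.1 to -30.4 points. For Pnn the matched cells stood above both positives and all negatives, and against all 75 negatives the difference was -6.61 points. Of the 75 genes lower by 20 points, 1 was also lower by 20 points against all negatives, which are shallower, and 48 against the 3 nearest negatives. Of the 330 higher genes, 290 and 212 were also higher by 20 points.

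**Figure D5:**
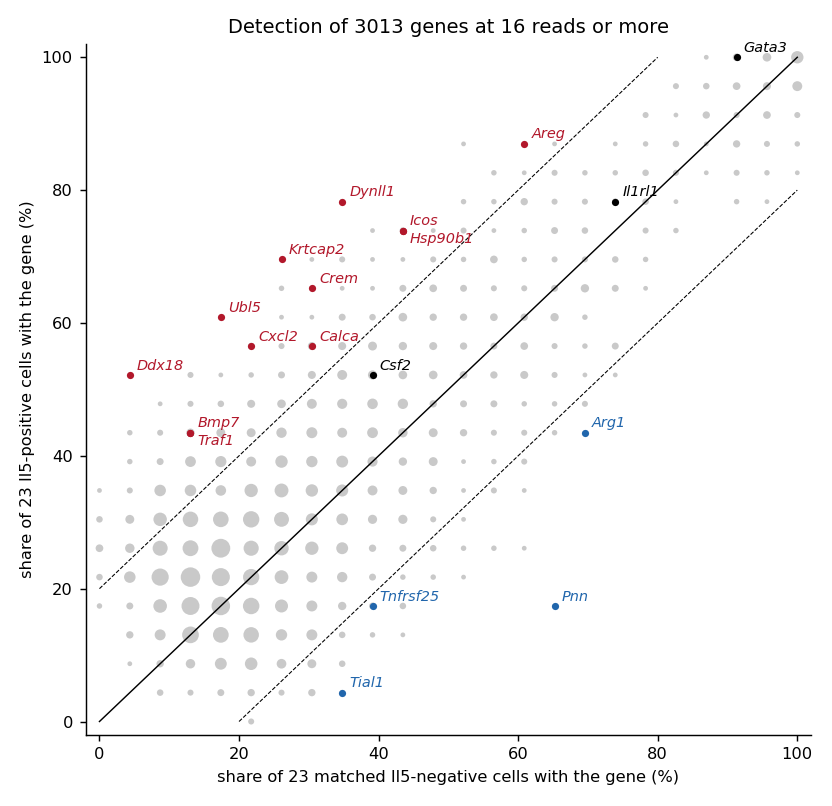
Share of the 23 Il5-positive cells (vertical) and of the 23 matched Il5-negative cells (horizontal) with 16 or more reads of each of 3013 genes, in percent; larger grey dots hold more genes, the solid line is equality and dashed lines are 20 points away. Areg, Cxcl2, Icos, Ddx18 and Krtcap2 lie above the upper line and Pnn, Arg1 and Tnfrsf25 below the lower line.

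The 7 Il5-positive photoconverted cells of the same plate offer a side-by-side view, without a comparison of classes. Areg was found in all 7, Calca, Cxcl2 and Csf2 in 6 each, Icos in 3 and Il13 in 0. Their median was 2951 genes, above that of the 23 non-photoconverted positives.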

How the data were processed

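Per the labels' protocols, ILC2 were sorted singly into plates and made into SORT-seq libraries; per the submitters' processing notes STAR, STARsolo, edgeR and the mm10 build were used, with no version or role given. The authors deposited read counts per row and well, not collapsed to molecules (up to 147279 reads in 1 row and well), and, per the file headers, a red fluorescence intensity per well in arbitrary units. Of the 11430 rows 78 are spike-ins. Row names were used for plate 1 only, since on plates 2 to 4 they did not match the values. Gene reads per usable cell ran from 17825 to 1273827.

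Detection needed 16 reads. Each Il5-positive cell was paired 1 to 1 with an Il5-negative cell by the smallest summed difference in log genes at 1 read or more. Genes detected in at least 10 of the 98 cells were described. Expected shares in 1000 reads drawn from a cell were exact, and log2 ratios of mean CPM used an added 10 CPM. The script was tested on simulated data (Python 3.11.15, numpy 2.4.6, pandas 2.3.3, scipy 1.17.1, matplotlib 3.10.9). No doublet caller was run on singly sorted cells.

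The members, the Il5 threshold and the gene lists were chosen with earlier results of these data known. Named genes were all measured members of the lists of cytokines, chemokines, receptors and transcription factors, up to 9 members of each other list by difference and mean CPM, genes within 1 Mb of Il5, and, leaving aside ribosomal proteins, pseudogenes and numbered models, the 12 most different genes on each side, with equal differences ordered by the ratio of mean CPM. At the limit 9 genes were tied on the high side and 20 on the low side, of which 7 and 4 are named. 1 gene that the rule names is not reported here. Alternatives changed the Il5 threshold, the detection threshold, the matching, the depth and the filters.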

Additional observations from a re-analysis of the deposited data

Results flagged for a closer look

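Il5 reached 16 reads in 7 of the 12 photoconverted wells of the plate, 58.3% (95% interval 27.7 to 84.8%), whereas 0 of 221 empty wells did. These wells enter no comparison here.

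Of the 53 non-photoconverted wells that failed the filter on genes or mitochondrial reads, 3 held 16 or more Il5 reads, 5.66% (95% interval 1.18 to 15.7%), again against 0 empty wells. The wells that failed had a median of 166 genes at 1 read or more.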

How the results depend on the processing

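No paired analysis was possible because all cells come from 1 plate with no replicate, and for the same reason no replicate could be left out. The number of genes higher by 20 points, 330, was 771 against all Il5-negative cells, 9 in cells drawn down to 1000 reads, 158 among genes in at least 20 cells, 22 drawn down against all negatives and 162 in pairs within 10% of each other; the last pair of settings was chosen after seeing the data. The number lower by 20 points, 75, was 1 with Il5-positive set at 1 read, 121 with it set at 64 reads, 1 against all negatives, 219 against the 3 nearest, 49 with detection at 64 reads, 1 drawn down, 38 among genes in at least 20 cells, 137 without the 3 cells of 10 or more cell cycle genes, 0 drawn down against all negatives and 136 in the close pairs. Most of these counts are out of 3013 described genes. Those among genes in at least 20 cells are out of 1222. Those without the 3 cells of 10 or more cell cycle genes are out of 2777, and those in the close pairs out of 2436. Counts over these smaller totals cannot be set directly beside 330 and 75. The median difference of 4.35 points was 10.9 with Il5-positive set at 1 read and 13.2 against all negatives. Stricter filters and the draw leave fewer genes or reads; other causes were not tested. Of the 330 higher genes, 321 kept their sign drawn down and 254 in the close pairs; of the 75 lower genes, 74 and 69 did.

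With Il5-positive set at 1 read, which moves 23 cells, differences below 0 reversed for Tnfrsf25 (10.9 points), Cish (2.17), Hadha (17.4), Pnn (13.0), Tial1 (4.35), Fam114a2 (6.52), Ubap2l (10.9), Dip2b (2.17) and Qars (17.4). Against all negatives Cish (3.83), Naip5 (0.406), Ubap2l (0.754) and Qars (1.39) reversed. Detection at 1 read reversed Tnfrsf25 (8.70) and Itgb2 (-4.35), drawing down Itgb2 (-3.90), and the close pairs Nfkbid (-6.25). The cause was not tested. With detection at 1 read the difference was 0 points for Areg, Rgs2 and Il17rb. It was 4.35 points for Cxcl2, Krtcap2 and Tnfrsf18, 8.70 for Odc1 and 13.0 for Calca. It was 39.1 points for Icos, 30.4 for Crem and 21.7 for Bmp7. A share of 23 cells moves in steps of 4.35 points, which limits the size of difference that can be seen.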
